A study of Drosophila melanogaster with 3 samples.

Results

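The 9 genes E2f1, E2f2, Dp, Rbf, CycD, CycE, Cdk2, Cdk4 and dap, which regulate the passage from G1 to S phase in Drosophila melanogaster, were examined for CG10431 binding. They were taken by symbol from the Ensembl annotation, out of 13986 protein-coding genes, and each was followed over its body and 2 kb on either side. Chromatin immunoprecipitation with sequencing (ChIP-seq) was done on whole embryos of mixed sex, 0 to 12 h old, from 1 transgenic line that stably expresses CG10431 fused at its C terminus to GFP. The line gave 1 group of 3 biological replicates and no second condition, so all values below describe that group. The authors deposited a list of 30000 candidate entries (peaks and background) for each replicate, a list of equal length for the pooled replicates, and the strongest pooled entries kept after an irreproducible discovery rate (IDR) analysis, 11.0% of that list. An entry is called top below where its rank in its own list is no lower than that of the last IDR entry. One label text calls the samples input controls, whereas the assay and antibody labels describe a ChIP of CG10431, and they were treated as such. Read depth is unknown, and no source used here states the scale of the deposited peak signal, so entries were ranked by signal within each list.

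In the fly, as in other animals, E2F and Dp proteins form heterodimers that bind the promoters of S-phase genes, and Rb family proteins such as Rbf hold them in check. Cyclin D with Cdk4 and Cyclin E with Cdk2 phosphorylate Rb family proteins, and Cyclin E-Cdk2 starts DNA replication, while dap encodes the Cip/Kip inhibitor of that kinase. In the fly embryo the first divisions run on maternal products without a G1 phase, and a G1 arrest appears later, when CycE transcription falls and dap is expressed.

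Sequence at the summits is shown first for the members on which the results turn, CycE, E2f1 and E2f2. Each summit base is given with 100 bp on either side, for the plus strand of dm6, from the RefSeq copy of the assembly (all 3 genes lie on the minus strand). Capitals mark the 7-mer TACATGG where it occurs and otherwise the summit base alone. The first is the CycE summit between alternative starts (chr2L:15747122-15747322), the second the strongest E2f1 summit (chr3R:21628742-21628942), the third the E2f1 summit upstream of an internal start (chr3R:21633266-21633466) and the fourth the strongest summit of all 9 genes, past the 3′ end of E2f2 (chr2L:21153924-21154124).
CycE intron: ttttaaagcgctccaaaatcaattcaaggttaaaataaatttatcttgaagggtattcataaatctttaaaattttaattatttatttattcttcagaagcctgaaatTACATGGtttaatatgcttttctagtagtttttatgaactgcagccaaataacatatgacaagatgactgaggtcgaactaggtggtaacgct
E2f1 intron: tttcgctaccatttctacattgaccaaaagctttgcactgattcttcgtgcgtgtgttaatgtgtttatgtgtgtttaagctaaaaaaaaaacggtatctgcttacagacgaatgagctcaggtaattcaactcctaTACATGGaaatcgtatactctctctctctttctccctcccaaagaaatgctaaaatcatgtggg
E2f1 internal start: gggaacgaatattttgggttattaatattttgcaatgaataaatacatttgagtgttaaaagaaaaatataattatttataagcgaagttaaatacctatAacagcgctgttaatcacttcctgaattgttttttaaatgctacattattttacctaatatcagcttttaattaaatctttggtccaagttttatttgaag
E2f2 downstream: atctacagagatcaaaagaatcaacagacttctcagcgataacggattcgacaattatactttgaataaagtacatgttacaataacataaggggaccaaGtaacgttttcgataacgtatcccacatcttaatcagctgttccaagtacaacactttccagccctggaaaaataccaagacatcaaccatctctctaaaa

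TACATGG, a 7-mer found in earlier work on these same data, began 8 bp from the CycE summit and 37 bp from the E2f1 intron summit. It was present in 2 of the 12 IDR windows of the 9 genes, against 7.72% of all IDR windows and 2.54% of the other pooled candidates. Because the 7-mer was taken from these same data, these shares are not independent evidence for it. The DRE core TATCGATA, a palindrome of core promoters, was in 0 of the 12 (3.26% of all IDR windows and 1.57% of the other candidates). The E2F consensus, searched on both strands as TTTGGCGC, TTTCCCGC, TTTCGCGC or TTTGCCGC, was also in 0 of the 12, against 4.01% of all IDR windows and 4.46% of the other candidates. No match means only that these letters were not in the windows searched, 100 bp on either side of each summit. The GC content of the 12 windows ran from 24.9%, at the internal start of E2f1, to 49.8%, at the InR promoter next to E2f1, with a median of 39.5% (37.8% over all IDR windows and 40.3% over the other candidates).

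IDR summits were found at the E2F genes, Dp, CycE, Cdk4 and Rbf, and none at CycD, Cdk2 or dap. In all, 6 of 9 genes (66.7%) held 12 IDR summits within the gene or 2 kb of it, against 26.8% of all protein-coding genes. The 9 genes have a median length of 4390 bp against 2162.5 bp for protein-coding genes, and longer genes more often hold a summit: 48.5% of genes of 10 kb or more did, and 23.3% of shorter genes. Only E2f1 and Dp had an IDR summit within 500 bp of one of their own transcript starts (22.2%), against 14.8% of protein-coding genes. A pooled candidate of any strength lay within 500 bp of a start in 7 of the 9 (77.8%), against 46.7% of protein-coding genes. A gene with more starts has more windows in which to be counted. The 9 genes have 22 distinct starts, and the 13986 protein-coding genes have 19649. In terms of candidates, 12 of the 69 pooled entries in these regions were IDR entries (17.4%, exact binomial 95% interval 9.32 to 28.4), against 11.0% of all pooled entries. The interval covers counting error only, and takes entries as independent although 41 are at E2f1 and some overlap. In the replicates, 16.4%, 22.5% and 21.4% of the entries there were top entries (mean 20.1% ± 3.27, SD, n = 3).

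**Figure D1:**
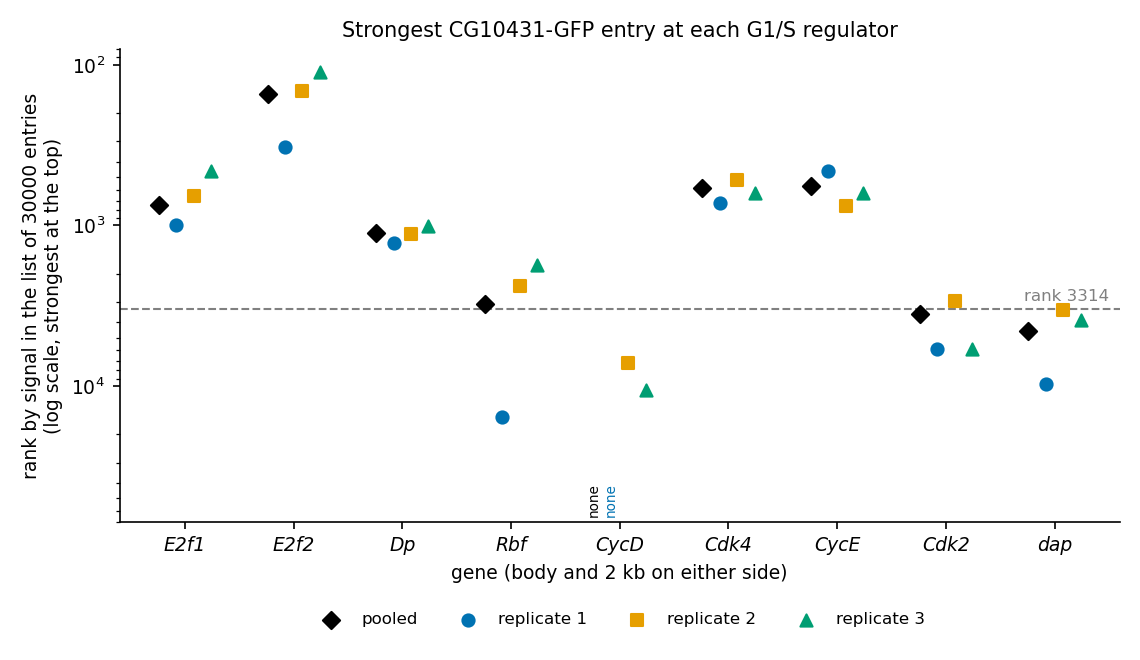
The rank by signal of the strongest entry in each gene and 2 kb on either side is plotted on a log axis, strongest at the top, for the pooled list (diamonds) and replicates 1 (circles), 2 (squares) and 3 (triangles). The dashed line is the rank of the last IDR entry. E2f1, E2f2, Dp, CycE and Cdk4 lie above it in every list, Rbf above it except in replicate 1, Cdk2 above it in replicate 2 alone, dap below it throughout, and CycD has entries in replicates 2 and 3 alone.

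The strongest entry of the set lay at E2f2, the gene of the repressive E2F protein (FBgn0024371, 2L, 21154293 to 21156749, minus strand). It had a signal of 897.6, 12.06 times the median of the pooled list, and rank 153 (2L, 21153818 to 21154182). It ranked 327, 146 and 111 in replicates 1, 2 and 3. These summits stood within 17 bp of the pooled one. The summit was 269 bp past the annotated 3′ end of E2f2, 2208 bp downstream of the nearest of its 2 starts, in intergenic sequence. The next gene on that side, del, is on the same strand, and its 5′ end is 5747 bp from the 3′ end of E2f2, so the nearest start of any gene was the E2f2 one. Another pooled entry, 66 bp past the 3′ end, had a signal of 111.9 and rank 7820. It overlapped the IDR entry, and its replicate matches were the same ones. At the E2f2 starts themselves, which face the overlapping gene Mpp6, the pooled list held 1 entry, with a signal of 103.2 and rank 8926. That entry ranked 8767, 9827 and 17142 in replicates 1, 2 and 3, so no list had a top entry at an E2f2 start.

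The other IDR summit counted for E2f2 (2L, 21158511 to 21158934, signal 194.7, rank 3096) was 1974 bp upstream of its first start, just inside the 2 kb limit. It lay 112 bp upstream of the start of Coq3, which encodes an enzyme of ubiquinone synthesis, and within 500 bp of the Pld3 start. It ranked 3815, 2708 and 14923 in replicates 1, 2 and 3, so that it was a top entry in replicate 2 alone. Beyond the 2 kb limit, the only IDR summit within 5 kb of any member was 4416 bp from Rbf, with a signal of 197.7 and rank 3014, and lay 181 bp from the start of Sec22.

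E2f1, which encodes the activating E2F protein (FBgn0011766, 3R, 21620304 to 21660871, minus strand), is the longest of the genes and has 5 distinct starts for 6 transcripts. Its strongest IDR summit (3R, 21628713 to 21628962, signal 433.3, pooled rank 749) was in an intron, 3851 bp downstream of the last start and 2345 bp upstream of the first coding base. The ranks were 1340, 656 and 458 in replicates 1, 2 and 3. A weaker IDR summit of the same intron (3R, 21629912 to 21630017, signal 207.4, pooled rank 2779) was 2766 bp downstream of that start. It was uneven between replicates, with ranks of 5466, 3162 and 1085.

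The third E2f1 summit (3R, 21633154 to 21633577, signal 323.2, pooled rank 1251) was 293 bp upstream of the fourth start, which serves the transcripts E2f1-RA and E2f1-RE and lies 27798 bp from the first. It ranked 998, 1069 and 2250 in replicates 1, 2 and 3, a top entry in each. The first start, of E2f1-RF, had a pooled entry 45 bp downstream with a signal of 149.4 and rank 4888. Replicate 3 ranked an entry there 1964, whereas replicates 1 and 2 ranked theirs 10616 and 19876. The internal start was thus above the IDR limit in all 3 replicates and the first start in 1 of 3.

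The third start, of E2f1-RC, had a pooled entry of signal 71.6 and rank 15969, and the fifth, of E2f1-RD, had no pooled entry within 500 bp. Candidates were dense over the gene: the pooled list held 41 entries, or 0.92 per kb, against a median of 0.235 per kb for 1986 protein-coding genes of 10 kb or more, 98.8% of which had a lower density. The replicates gave 0.808, 0.875 and 0.785 entries per kb over the same 44.57 kb. Some of the 41 overlapped and shared replicate matches, so they need not be separate sites. Pooled density at the other genes of the set ran from 0.0 per kb at CycD to 0.774 at E2f2. The 37 E2f1 entries outside the IDR list had signals of 48.7 to 173.0 with a median of 77.8, against a median of 74.4 for the whole pooled list. The highest of them (rank 3781, with ranks of 3536, 3890 and 5291 in replicates 1, 2 and 3) was 1749 bp upstream of the first E2f1 start, in an intron of the neighbouring gene Archease and 352 bp from its start. Of the 41, 9.76% were IDR entries, near the 11.0% of all pooled entries, against 28.6% of the 28 entries at the other 8 genes.

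The IDR summit at the 3′ side of E2f1 (3R, 21619123 to 21619546, signal 285.3, pooled rank 1590) was 969 bp beyond the gene and 14 bp upstream of the start of InR, which encodes the insulin receptor. It ranked 2627, 2089 and 1154 in replicates 1, 2 and 3. It was 13358 bp from the nearest E2f1 start. Replicate 3 also held an entry of rank 1710 in an E2f1 intron, 3180 bp downstream of a start, which had rank 8986 in replicate 1 and no entry within 250 bp in replicate 2.

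**Figure D2:**
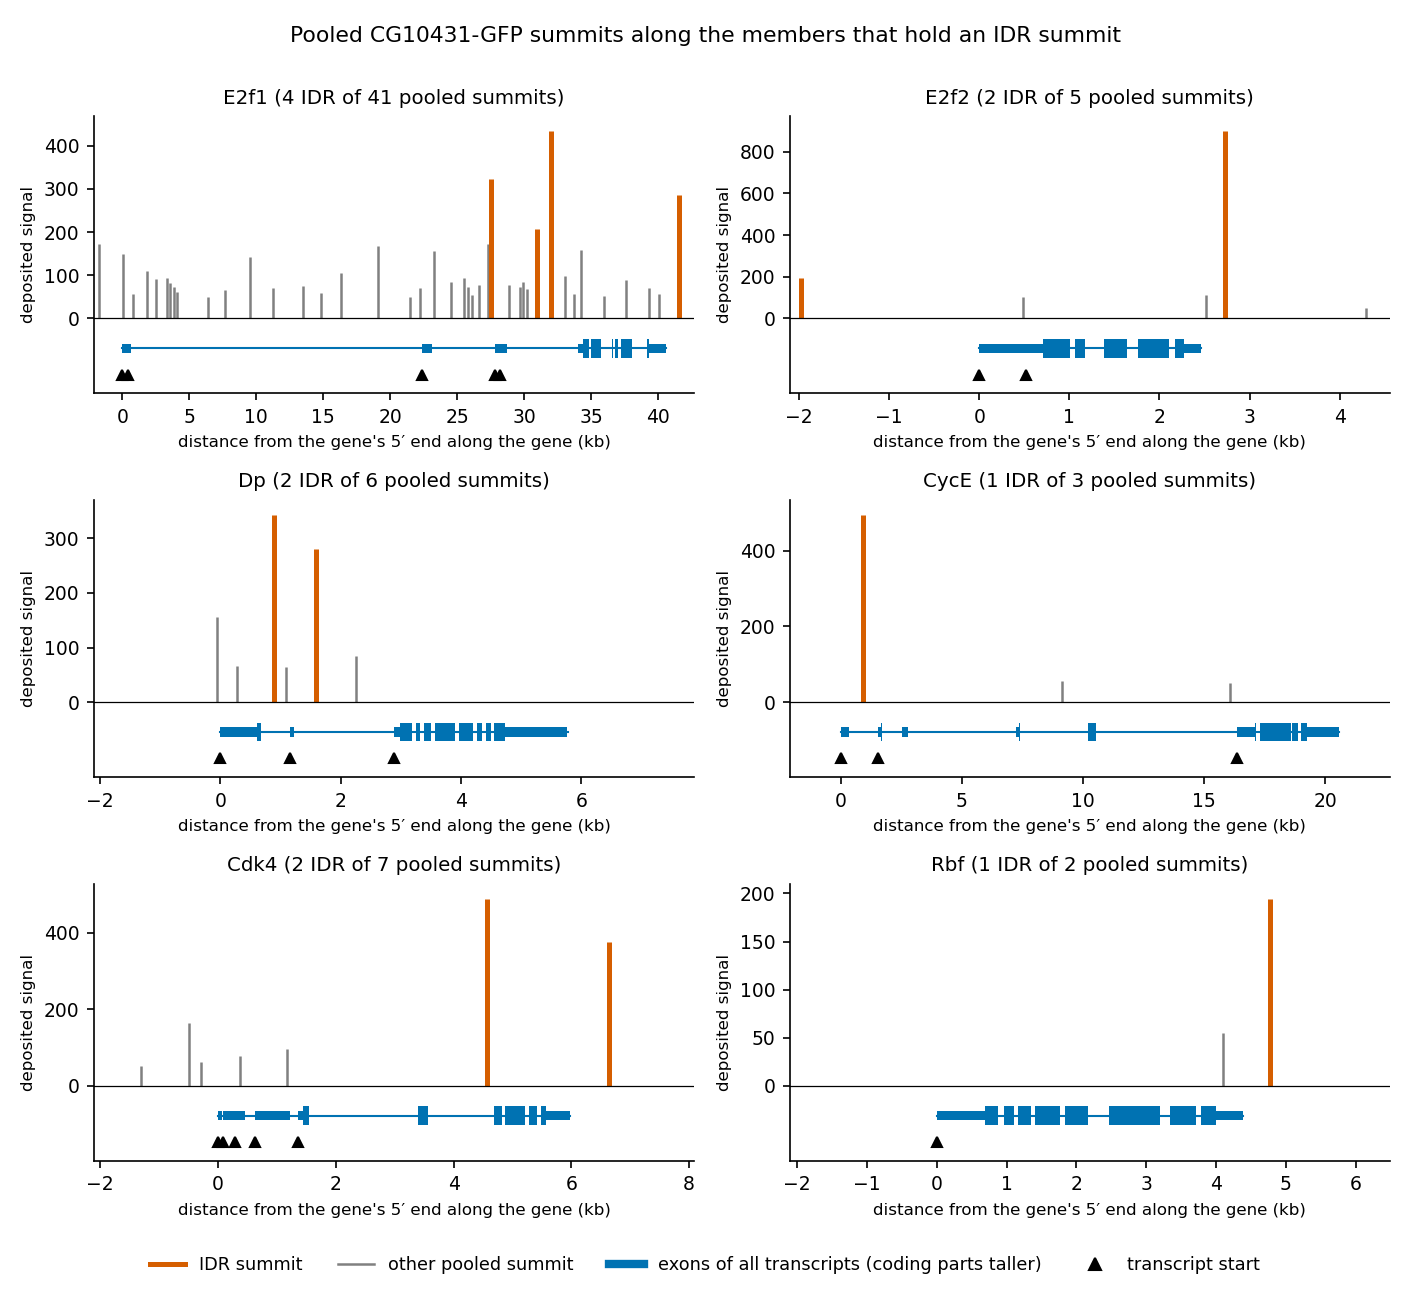
Pooled summits are drawn as vertical lines at their distance in kb from the 5′ end of each gene, with the deposited signal as height, IDR summits in orange and other candidates in grey. Exons of all transcripts stand below (coding parts taller), with triangles at transcript starts. In CycE the IDR summit stands between the first and the second start, in E2f2 past the last exon, and in E2f1 3 of 4 stand far from the first start and ahead of the coding exons.

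Dp encodes the dimerization partner of both E2F proteins (FBgn0011763, 2R, 13222433 to 13228202, plus strand) and was the gene with most IDR summits at its own starts. The higher (2R, 13223109 to 13223532, signal 342.8, pooled rank 1115) was 270 bp upstream of the second of 3 starts, that of Dp-RC, with ranks of 1289, 1300 and 1013 in replicates 1, 2 and 3. The lower (2R, 13223808 to 13224231, signal 279.8, pooled rank 1664) was 429 bp downstream of that start and ranked 2810, 1126 and 2698. Both were in introns of Dp and both were top entries in every replicate. The lower one was also within 500 bp of the start of lncRNA:CR43918.

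At the first Dp start, shared within 500 bp with the divergent gene Fsn, the stronger pooled entry (signal 155.6, rank 4542) stayed outside the IDR list. It was nearer to the Fsn start (44 bp) than to that of Dp (51 bp). Replicate 1 ranked an entry there 2437, while replicates 2 and 3 had ranks of 6758 and 12865 at the same summit. A weaker pooled entry, 282 bp downstream of that Dp start, had rank 18398. It ranked 4846 in replicate 2 and had no entry within 250 bp in replicates 1 and 3. The third start had no pooled entry within 500 bp. As at E2f1, the IDR summits at starts lay at an internal start and not at the 5′ end of the gene.

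Rbf, the retinoblastoma family gene (FBgn0015799, X, 797090 to 801479, minus strand), had the weakest IDR summit of the 12, barely above the list's lowest signal of 186.7. It was at X, 796497 to 796920, with a signal of 194.5 and pooled rank 3101. The summit was 381 bp past the 3′ end of Rbf, in the 3′ UTR of the convergent gene CG16989, 4770 bp from the only Rbf start. It ranked 17884, 2372 and 2897 in replicates 1, 2 and 3. In replicate 3 a stronger entry (rank 1759) stood 263 bp from the IDR summit, which replicate 1 had at rank 17884 and replicate 2 lacked within 250 bp. The other pooled entry of Rbf was in its 3′ UTR, with a signal of 54.9 and rank 23819. Within 500 bp of the Rbf start, the pooled list and replicates 1 and 2 had no entry, and replicate 3 had 1 of rank 28837.

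CycE, the cyclin partner of Cdk2 (FBgn0010382, 2L, 15727581 to 15748150, minus strand), had 1 IDR summit, near its 5′ end. The IDR entry (2L, 15747155 to 15747342) had a signal of 494.1, 6.64 times the pooled median, and rank 569, with ranks of 457, 759 and 625 in replicates 1, 2 and 3. Replicate summits lay 11 to 77 bp from the pooled one. The summit was in an intron, 928 bp downstream of the first start (CycE-RA and CycE-RE) and 612 bp upstream of the second (CycE-RC, CycE-RD and CycE-RF), so it counted at no start with a 500 bp window and at both with 1000 bp. No pooled entry was within 500 bp of either start. The remaining 2 pooled entries of the gene had signals of 54.6 and 49.4 (ranks 24025 and 27662), the weaker 283 bp upstream of the third start, that of CycE-RB. The density was 0.122 pooled entries per kb over 24.57 kb, and 32.5% of genes of 10 kb or more had a lower one. Replicates 1, 2 and 3 gave 0.163, 0.122 and 0.285 entries per kb, against medians of 0.242, 0.233 and 0.239 for genes of 10 kb or more, so that replicate 3 alone was above the median. Replicate 3 also held entries within 500 bp of the first and the second start, with ranks of 28182 and 15033, where the other replicates held none.

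CycD, the cyclin partner of Cdk4 (FBgn0010315, X, 15906822 to 15909676, minus strand), was the only gene of the 9 with no pooled entry in its region. The nearest pooled entry was 12811 bp away and the nearest IDR entry 14698 bp away. Replicate 1 had no entry there either. Replicates 2 and 3 had 2 entries each in the region. The strongest was 110 bp upstream of the start in replicate 2, with rank 7222, and 14 bp upstream in replicate 3, with rank 10629. None of the replicate entries was a top entry, and with unknown depth this does not show that binding at CycD is absent.

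Cdk4, the G1 kinase gene (FBgn0016131, 2R, 16579470 to 16585448, plus strand), held an IDR summit in an intron (2R, 16583994 to 16584169, signal 488.6, pooled rank 581). It ranked 730, 521 and 628 in replicates 1, 2 and 3. It was 3207 bp downstream of the last of 5 starts, and the nearest start of any gene was that of the antisense transcript asRNA:CR44375, 671 bp away. The other IDR summit (2R, 16586009 to 16586199, signal 374.8, pooled rank 944) was 663 bp past the 3′ end of Cdk4 and 18 bp upstream of the start of RpLP2, which encodes a protein of the ribosomal stalk. Its ranks were 1011, 963 and 1083. At the Cdk4 starts, clustered over 1363 bp, the strongest pooled entry was 483 bp upstream of the first, with a signal of 163.8 and rank 4173, and ranks of 5103, 6421 and 7964 in the replicates. None of the 3 replicates had a top entry at a Cdk4 start.

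Cdk2 and dap had pooled entries at their starts but none in the IDR list. Cdk2, the S-phase kinase gene (FBgn0004107, 3R, 20735623 to 20738414, plus strand), had 1 pooled entry (3R, 20735387 to 20735810), 24 bp upstream of its only start, with a signal of 179.0 and rank 3563. Replicate 2 ranked it 2960, and replicates 1 and 3 ranked it 5851 and 5847. The DRE core lay in its window, from 37 to 30 bp before the summit. Among candidates of the 9 genes outside the IDR list, motif matches were looked up for this entry alone. The hairpin of mir-995 lies inside Cdk2 and its start is within 500 bp of the same summit.

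The pooled list held 4 entries at dap, the Cyclin E-Cdk2 inhibitor gene (FBgn0010316, 2R, 9712321 to 9716256, plus strand), all within 500 bp of its start. Neighbouring entries overlapped and shared replicate matches, so they need not be separate sites. The strongest was 473 bp upstream (signal 155.7, rank 4538), with ranks of 9750, 3341 and 8233 in replicates 1, 2 and 3. The strongest dap entry of replicate 3 was another one, 129 bp downstream of the start, with rank 3853. The inhibitor gene thus had no top entry in any list, and replicate 2 came closest.

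**Figure D3:**
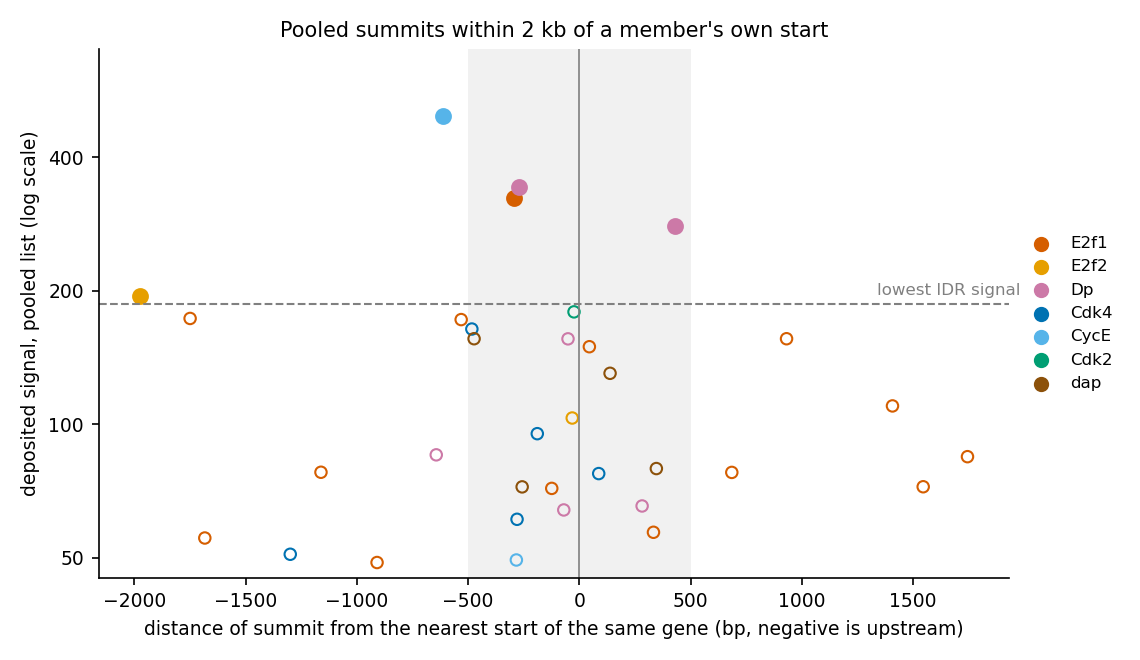
Each point is a pooled summit within 2 kb of a start of the same gene, with its distance from that start in bp on the x axis (negative is upstream) and its deposited signal on a log y axis. Filled points are IDR summits, open points other candidates, and the shaded band is 500 bp on either side of the start. Of the filled points, 3 lie in the band (1 of E2f1 and 2 of Dp), the CycE summit lies just left of it, the E2f2 summit at Coq3 lies at the far left, and Cdk2 lies just under the dashed line of the lowest IDR signal.

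Across the set, 22 distinct starts were annotated, of which 16 had a pooled summit within 500 bp and 2 had an IDR summit there. Among the 19649 distinct starts of protein-coding genes the shares were 47.3% and 13.6%. Neighbouring starts of E2f1, of E2f2 and of Cdk4 shared a pooled entry, so the 16 starts do not stand for as many separate entries. Of the 12 IDR summits, 7 were in introns, 4 in intergenic sequence and 1 in a 3′ UTR. Inside the bodies of the genes were 7 of the 12, held by E2f1, Dp, CycE and Cdk4. The nearest start of any gene was the member's own for 7 of 12, at E2f1, E2f2, Dp and CycE. The summits next to InR, Coq3 and RpLP2 (3 of 12) lay within 500 bp of starts of other genes only. These placements of summits were not counted over all IDR entries, so they cannot be read as particular to the 9 genes. Placement in the gene body left 4 of the 9 genes with an IDR summit, against 10.1% of protein-coding genes. Placement by nearest start of any gene also left 4, against 14.8%. The 4 genes with a summit in the body are long: 96.7%, 77.9%, 92.9% and 78.7% of protein-coding genes are shorter than E2f1, Dp, CycE and Cdk4. For the gene body, no share among genes of like length was computed.

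Recurrence was then compared between replicates. Of the 12 IDR summits, 9 (75.0%) had a top entry of all 3 replicates within 250 bp, against 61.2% of all IDR entries. Replicate 1 held 9 of the 12, replicate 2 all 12 and replicate 3 held 11. The 3 that did not recur everywhere were the weakest of the 12 in the pooled list, and were at E2f1 (2766 bp downstream), E2f2 (at Coq3) and Rbf. IDR entries come from the pooled reads of the same replicates, and all lists share 1 control alignment, so recurrence is not independent evidence.

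**Figure D4:**
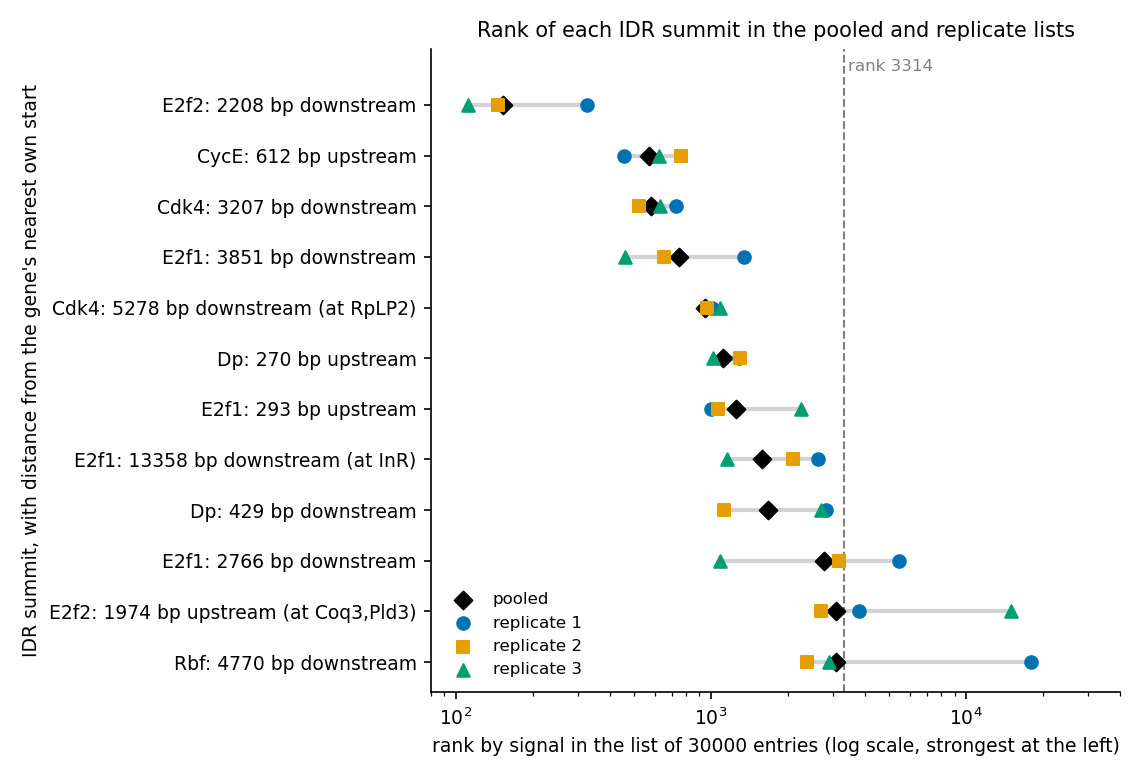
The 12 IDR summits are listed by pooled rank, strongest first, and each is named by its gene and its distance from the nearest own start, with the gene in brackets where the summit lies at a start of another gene. Symbols give the rank in the pooled list and in each replicate on a log axis, and the dashed line is the rank of the last IDR entry. The upper 9 summits stay left of the line in every list, and the lowest 3 cross it.

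The strongest summits of the genes ordered E2f2 (pooled rank 153), CycE (569), Cdk4 (581), E2f1 (749), Dp (1115), Rbf (3101), Cdk2 (3563) and dap (4538), with CycD last. Replicate ranks of CycE (457 to 759), Cdk4 (521 to 730) and E2f1 (458 to 998, by the strongest entry of each replicate) overlapped, so their order is not resolved. E2f2 ranked above the others in every list. The promoter entries of the IDR list whose ranks over the 4 lists were most like those of the E2f2 summit, out of 1773 compared by Euclidean distance of log10 rank, were those at Dph4 (distance 0.132), CG17816 (0.169) and CG6610 (0.183).

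Other genes of G1/S control were read in the same way at their starts. Of 32 such genes in 4 lists, 10 had an IDR summit within 500 bp of a start and 24 a pooled candidate (14.8% and 46.7% of protein-coding genes). Among 8 partners of Rb and E2F proteins, 3 did: Rbf2, the second Rb family gene (3R, 15965188 to 15965611, signal 303.5, 46 bp upstream), l(3)mbt (signal 246.1, 365 bp upstream) and mip130, a subunit of the dREAM complex (signal 201.1, 287 bp upstream). Rbf2 had ranks of 1345, 1527 and 1670 in replicates 1, 2 and 3, whereas Rbf had none at its start outside replicate 3.

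Among 12 genes for turnover and activation of the cyclin-kinase complexes, 3 did: Skp2 (3R, 4337479 to 4337902, signal 381.6, 17 bp upstream), ago, which encodes the F-box protein that targets Cyclin E for degradation (signal 234.4, 301 bp upstream), and Cks85A (signal 212.7, 380 bp upstream of an internal start). Among 5 transcription factors linked to growth it was sd (X, 15811645 to 15811807, signal 415.2, 378 bp upstream of an internal start) and yki, its coactivator in the Hippo pathway (signal 285.2, 345 bp upstream). Myc had a candidate of rank 10417 at its start. Among 7 E2F targets it was RnrS, the small subunit of ribonucleotide reductase (2R, 11985508 to 11985753, signal 479.7, 238 bp upstream, ranks 609, 748 and 605), and stg, the Cdc25 phosphatase gene of mitotic entry (signal 232.6, 7 bp upstream of an internal start). RnrL, the large subunit, had no candidate within 500 bp of a start. Of these 10 summits, 8 also lay within 500 bp of a start of another gene, such as CG32856 for Rbf2 and CG34231 for RnrS, and those of sd and stg did not.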

How the data were processed

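Per the deposited notes on file origin, the authors called candidate entries on each replicate's alignment, and on the pooled alignments, against 1 shared control, and derived the IDR list from these. Per the labels, chromatin was sonicated to 200 to 800 bp and the build is dm6. No source used here names the aligner or the caller. The signal of each entry, and its q-value as −log10, were used as the authors deposited them, the second only to describe the lists (2.74 to 3.33 in the IDR list). Signals were compared only within a list. Between lists, only the ranks that entries had within their own list were set side by side.

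The 1-based summit is column 2 plus column 10 plus 1. Genes came from Ensembl release 115 (18358 genes without transposable elements, 23779 distinct starts), and the coordinates of all 9 genes equalled those of RefSeq. Of the 32 other genes, 31 matched by symbol and 1 (Cdt2, as l(2)dtl) by synonym. A replicate entry within 250 bp was taken as the same summit, the strongest where there were several. With 1 group no test was run. Windows and matching were checked on simulated data. Python 3.11.15 with pandas 2.3.3 and scipy 1.17.1 was used.

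The 9 genes, the lists and the motifs were chosen with earlier results of these data known. Named were all 9 genes with their IDR summits, the strongest other candidate of each gene, genes whose start lay nearer to such a summit, the 3 promoter entries closest in rank to the E2f2 summit, and up to 4 genes per list with an IDR summit at a start. Everything else that is named lies outside this rule and was chosen after its values were seen: Myc, RnrL, the summit at Sec22, entries that are top in 1 replicate alone, and further candidates and neighbouring genes in or near the 9 genes. The motif search at the Cdk2 entry also lies outside the rule.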

Additional observations from a re-analysis of the deposited data

How the results depend on the processing

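Of 49 results recomputed under an alternative, 39 stayed within the limits set (a count within 1.5 times, a share within its interval). The 12 IDR summits came to 7 with the gene bodies alone and 7 with each summit given to the nearest start of any gene. The 2 genes with an IDR summit at a start came to 0 with a 250 bp window and to 0 with the 5′ end of the gene record alone, since both rest on internal starts. The 10 other G1/S genes bound at a start came to 4 with a 250 bp window, 5 with IDR entries above the list's median signal, 5 with IDR entries found in all 3 replicates, and 6 to 7 when 1 replicate was set aside. With the 5′ end of the gene record alone, 8 of these 10 genes remained. The share of IDR entries among candidates, 17.4%, was 28.6% without E2f1, an alternative chosen after seeing the data. To set a replicate aside here means to keep the IDR entries that recur in both others, since the deposited list itself cannot be remade. The 6 genes with an IDR summit ranged from 4 to 6 over all alternatives, and Rbf was absent when recurrence in replicate 1 was required. Unknown read depth limits what can be said of the genes near the IDR limit.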
